A study of Mus musculus with 3 samples.

Results

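The major urinary proteins are small secreted lipocalins encoded by a cluster of tandem gene copies in the mouse. The 10 genes described here, Mup1, Mup3, Mup7, Mup9, Mup11, Mup14, Mup16, Mup17, Mup18 and Mup20, were taken by symbol from 32285 features, 22 of which carried a Mup symbol. They were chosen with their levels in these libraries known, so every value is given as a description, without a test. Droplet single-cell sequencing of RNA 3′ ends was done on primary hepatocytes of WT mice, with 1 library for each of 3 diets and a unique molecular identifier (UMI) on each captured molecule. The HFD_HDCA mice ate a high fat diet (60%) to which the bile acid hyodeoxycholic acid (0.25%) was added, the HFD mice ate that high fat diet alone, and the ND mice ate a normal diet, each for 12 weeks. Hepatocytes were freed by collagenase perfusion. The sources used here do not state how many mice a library holds, nor their sex and age. With 1 library for each diet there was no replicate check, so all intervals cover counting error only and a difference between libraries may be one of mice, preparation or diet, which cannot be told apart.

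Hepatocytes secrete major urinary proteins into the blood, and the kidney passes them into urine, where they carry volatile pheromones in a barrel-shaped pocket. Their transcription in the liver is driven by pulses of growth hormone acting through STAT5B, which makes the family more abundant in adult males than in females. Mup20 encodes darcin, a male pheromone that attracts females, and circulating MUP1 has been linked to glucose and lipid metabolism in mice. Hepatocytes at the portal end of a liver lobule and at its central vein express different genes, and the family was therefore also followed along that axis.

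All 10 genes lie on the minus strand of chromosome 4, between positions 60066469 and 62087342 of GRCm38, a span of 2021 kb, and all are annotated as protein coding. Mup3 (positions 62083476 to 62087342) and Mup20 (62050234 to 62054158) are neighbours at one end, within 37.1 kb. The other 8 genes occupy 60066469 to 61674136. Because the libraries read 3′ ends, copies that are alike there can exchange reads. In the last 400 bases of the annotated transcripts, pairs of the 8 genes were 97.5 to 99.5% identical (median 98.5%, 28 pairs). Mup20 was 91.7 to 93.2% identical to them and Mup3 76.9 to 78.3%. All 90-base windows of that stretch were unique to Mup3 among all annotated transcripts, and 87.8% of windows were unique to Mup20. The share was 70.1% for Mup17, 40.4% for Mup1, 36.5% for Mup11 and between 11.5% and 23.5% for Mup14, Mup18, Mup7, Mup9 and Mup16. Counts of Mup3 and Mup20 are therefore well separated from the rest, while how counts divide among the other 8 is uncertain. The 8 are given one by one and also as a sum, which was added after their values were seen. The treatment of reads that fit several copies was not stated in the sources used here. If such reads were left uncounted, the levels of the 8 and their sum are too low beside Mup3 and Mup20.

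The promoters are shown because copies with near-identical upstream sequence differed widely in counted level, within the uncertainty of shared reads. Mup3, which differed by less than 2-fold in each diet comparison, can be set beside them. RefSeq promoter sequences on GRCm38.p6, from 250 bases before to 50 bases after the annotated start, were found for 7 of the 10 genes. The minus strand is printed 5′ to 3′, and capitals mark ATCAAT, the core that the liver factor Onecut1 binds, and TATATAA, which sets where transcription starts. Mup17 spans chr4:61595783-61596082, Mup11 spans chr4:60662346-60662645 and Mup3 spans chr4:62087268-62087567.
Mup17: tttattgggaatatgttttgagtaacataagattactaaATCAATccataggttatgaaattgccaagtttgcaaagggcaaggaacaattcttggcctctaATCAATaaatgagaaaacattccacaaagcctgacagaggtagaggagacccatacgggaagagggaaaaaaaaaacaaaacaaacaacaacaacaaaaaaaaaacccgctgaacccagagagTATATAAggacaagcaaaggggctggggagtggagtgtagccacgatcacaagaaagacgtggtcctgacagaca
Mup11: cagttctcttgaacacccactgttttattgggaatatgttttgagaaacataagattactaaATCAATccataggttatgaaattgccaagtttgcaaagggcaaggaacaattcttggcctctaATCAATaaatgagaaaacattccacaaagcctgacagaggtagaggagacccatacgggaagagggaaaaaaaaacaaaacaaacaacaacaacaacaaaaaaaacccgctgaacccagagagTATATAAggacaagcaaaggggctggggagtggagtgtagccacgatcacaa
Mup3: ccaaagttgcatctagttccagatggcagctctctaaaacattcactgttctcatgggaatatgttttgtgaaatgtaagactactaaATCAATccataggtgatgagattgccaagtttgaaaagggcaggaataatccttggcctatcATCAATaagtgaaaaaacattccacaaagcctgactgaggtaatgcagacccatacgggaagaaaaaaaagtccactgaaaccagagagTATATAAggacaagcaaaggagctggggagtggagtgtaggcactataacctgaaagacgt
The Mup17 and Mup11 promoters were 99.6% identical over their aligned bases, and Mup17 and Mup3 87.6%. Motifs were searched on both strands, and none of the marked matches overlap each other. ATCAAT was in all 7 promoters, each with 2 matches whose starts were 62 bases apart in Mup3 and 63 bases apart in the other 6, against 7.54% of 32851 promoters of the same length with a match. TATATAA was in 6 of the 7, all but Mup7, against 3.24% of all promoters. In those 6 it started 89 to 125 bases after the start of the second ATCAAT. The Mup7 window ends before that distance is reached, so whether Mup7 has TATATAA at such a spacing was not tested. Relative to the annotated start, TATATAA began at -31 in Mup9 and at 12 in Mup14, so annotated starts do not mark matching places in the copies. TTCNNNGAA, the motif of STAT5, was in 0 of the 7 windows, against 8.30% of all promoters. The 7 promoters were 84.5 to 99.6% identical in pairs, so these counts are not separate finds and nothing is read from the shares. These are counts of letters in a short window and say nothing of where a factor binds.

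The 3 matrices held 4873 HFD_HDCA, 6290 HFD and 5755 ND barcodes, of which 3000 HFD_HDCA, 2898 HFD and 2776 ND barcodes passed the limits of 200 detected genes or more and 50% mitochondrial UMIs or less. The retained barcodes held 5795200 HFD_HDCA, 3734740 HFD and 4274662 ND nuclear-encoded UMIs, and the median depth in all UMIs was 1116.5 in HFD_HDCA, 868 in HFD and 944.5 in ND. The libraries stood apart in mitochondrial content, with medians over all barcodes of 14.5% in HFD_HDCA, 63.1% in HFD and 61.1% in ND. Each pair of libraries shared between 6 and 16 barcodes, 1 to 5 after filtering. All 8 hepatocyte markers were detected in each library. Barcodes with at least 3 markers of another cell type, or 2 erythroid ones, were 2.20% in HFD_HDCA, 1.66% in HFD and 4.11% in ND. The 10 endothelial markers together had 106 CPM in HFD_HDCA, 67.7 CPM in HFD and 423 CPM in ND, where CPM is UMIs per 1000000 nuclear-encoded UMIs of the library. The 4 globin markers had 26.2 CPM in HFD_HDCA and 342 CPM in HFD and were all at 0 in ND. The Y-linked gene Ddx3y was at 123 CPM in HFD_HDCA, 130 CPM in HFD and 101 CPM in ND. The X-linked gene Xist had 3 counts in HFD_HDCA, 1 in HFD and 7 in ND.

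Mup3 and Mup20 made up most of the family's counted UMIs in every library. Mup3 had 19105 CPM in HFD_HDCA, 21795 CPM in HFD and 17294 CPM in ND, which placed it between rank 2 and rank 4 among all nuclear-encoded genes of a library. Mup20 had 13675 CPM in HFD_HDCA, 20683 CPM in HFD and 24277 CPM in ND, with ranks of 7 in HFD_HDCA, 3 in HFD and 2 in ND. Mup20 was the more abundant of the pair in ND, and Mup3 in both libraries from the high fat diet. Since 1 UMI stands for 1 captured molecule whatever the length of its gene, CPM values are levels that can be set beside each other between genes, within the uncertainty of shared reads.

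The other 8 genes ran from about the level of common liver enzymes down to about 10.0 CPM. Mup11 had 1237 CPM in HFD_HDCA, 5978 CPM in HFD and 1202 CPM in ND. Mup17 had 664 CPM in HFD_HDCA, 5206 CPM in HFD and 258 CPM in ND. Mup7 had 115 CPM in HFD_HDCA, 1963 CPM in HFD and 332 CPM in ND. For these 3 genes the HFD library was the highest by a wide margin, and the order of the remaining libraries differed from gene to gene. Mup1 had 73.3 CPM in HFD_HDCA, 533 CPM in HFD and 150 CPM in ND. Mup9 had 30.02 CPM in HFD_HDCA, 380 CPM in HFD and 36.3 CPM in ND. Mup16 had 38.5 CPM in HFD_HDCA, 379 CPM in HFD and 66.2 CPM in ND. In HFD the levels of Mup9 and Mup16 differed by less than their counting intervals. Mup14 had 23.3 CPM in HFD_HDCA, 166 CPM in HFD and 59.7 CPM in ND. Mup18, the lowest member, had 10.0 CPM in HFD_HDCA, 60.0 CPM in HFD and 10.1 CPM in ND.

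**Figure D1:**
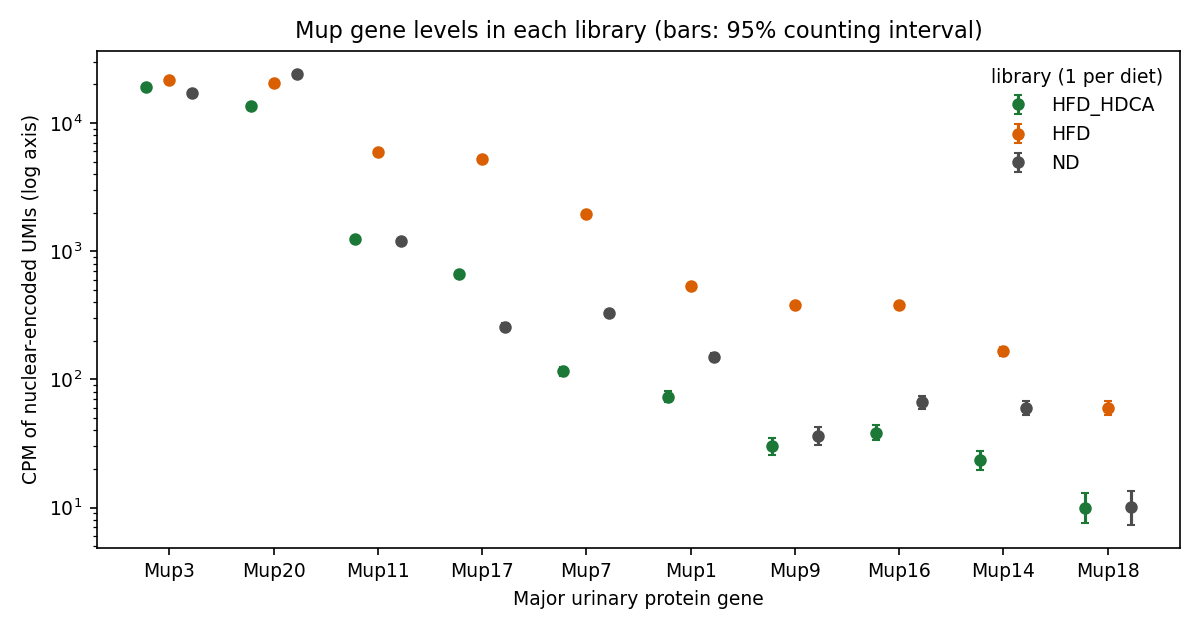
Level of each of the 10 Mup genes in the HFD_HDCA, HFD and ND libraries, in CPM on a log axis, with 95% Poisson intervals that cover counting error only. Mup3 and Mup20 lie between 13675 and 24277 CPM in all 3 libraries, while the HFD point of each other gene lies above its HFD_HDCA and ND points.

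With hyodeoxycholic acid in the high fat diet, all 8 genes other than Mup3 and Mup20 were lower than with the high fat diet alone. Their sum was 2192 CPM in HFD_HDCA and 14666 CPM in HFD, 6.69-fold lower in HFD_HDCA (log2 ratio -2.74, 95% counting interval -2.77 to -2.71). Mup7 was the furthest apart, 17.0-fold lower (log2 ratio -4.09, interval -4.20 to -3.97), and Mup11 the least, 4.83-fold lower (log2 ratio -2.27, interval -2.31 to -2.23). Mup9 and Mup16 followed Mup7 at log2 ratios of -3.66 and -3.30. Mup17 had a log2 ratio of -2.97, Mup1 of -2.86, Mup14 of -2.83 and Mup18 of -2.57. Mup20 was lower by less, at a log2 ratio of -0.60, and Mup3 at -0.19. By a 2-fold rule, 8 of 10 members were lower in HFD_HDCA and 0 were higher. Of the 7855 genes whose counts summed to 100 or more over the libraries, 1.48% were lower and 1.63% higher by this rule, but the members were chosen on this contrast and nothing is read from the excess. The median log2 ratio was -2.84 over the 10 members and 0.05 over all 7855 genes.

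Set against the normal diet, the high fat diet library was high in the same 8 genes. Their sum was 14666 CPM in HFD and 2114 CPM in ND, 6.94-fold higher in HFD (log2 ratio 2.79, interval 2.76 to 2.83). Mup17 was 20.2-fold higher (log2 ratio 4.33, interval 4.25 to 4.42) and Mup9 followed at a log2 ratio of 3.39. Mup7, Mup18 and Mup16 had log2 ratios of 2.56, 2.56 and 2.52, Mup11 of 2.31, Mup1 of 1.83 and Mup14 of 1.47. Mup3 was slightly higher in HFD, at a log2 ratio of 0.33, and Mup20 slightly lower, at -0.23. Counted by the 2-fold rule, 8 of 10 members were higher and 0 lower in HFD, where 2.85% of the 7855 genes were higher and 3.53% lower. The median log2 ratio was 2.41 over the members and -0.06 over all genes. This comparison and the one above share the HFD library, so their opposite directions are not independent of each other.

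Between the HFD_HDCA and ND libraries there was no such offset in the sum of the 8 genes, and the copies differed in direction. The sum of the 8 genes was 2192 CPM in HFD_HDCA and 2114 CPM in ND (log2 ratio 0.05, interval 0.01 to 0.09). With each barcode weighted equally the log2 ratio was -0.060, so no direction is given. Mup17 was 2.57-fold higher in HFD_HDCA (log2 ratio 1.36, interval 1.27 to 1.46). Mup7 was 2.88-fold lower (log2 ratio -1.52, interval -1.66 to -1.39), and Mup14 and Mup1 were lower at log2 ratios of -1.35 and -1.03. The Mup1 ratio was -0.84 with each barcode weighted equally and -0.81 with barcodes thinned to 500 UMIs, so its place past 2-fold ended there, while Mup16 passed 2-fold with thinning (-1.02). The counting intervals of Mup11, Mup9 and Mup18 spanned 0. Mup16 was lower at a log2 ratio of -0.78 and Mup20 at -0.83, and Mup3 was higher at 0.14. By the 2-fold rule 1 of 10 members was higher in HFD_HDCA and 3 were lower, against 2.62% and 2.97% of all measured genes. The median log2 ratio was -0.53 over the 10 members, of which 7 were below 0 and 3 above, and -0.006 over all measured genes. The mix of the 8 thus differed between libraries whose sums were alike, with the reservation that few 3′ windows are unique to Mup7 (16.9%) or Mup14 (23.5%).

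**Figure D2:**
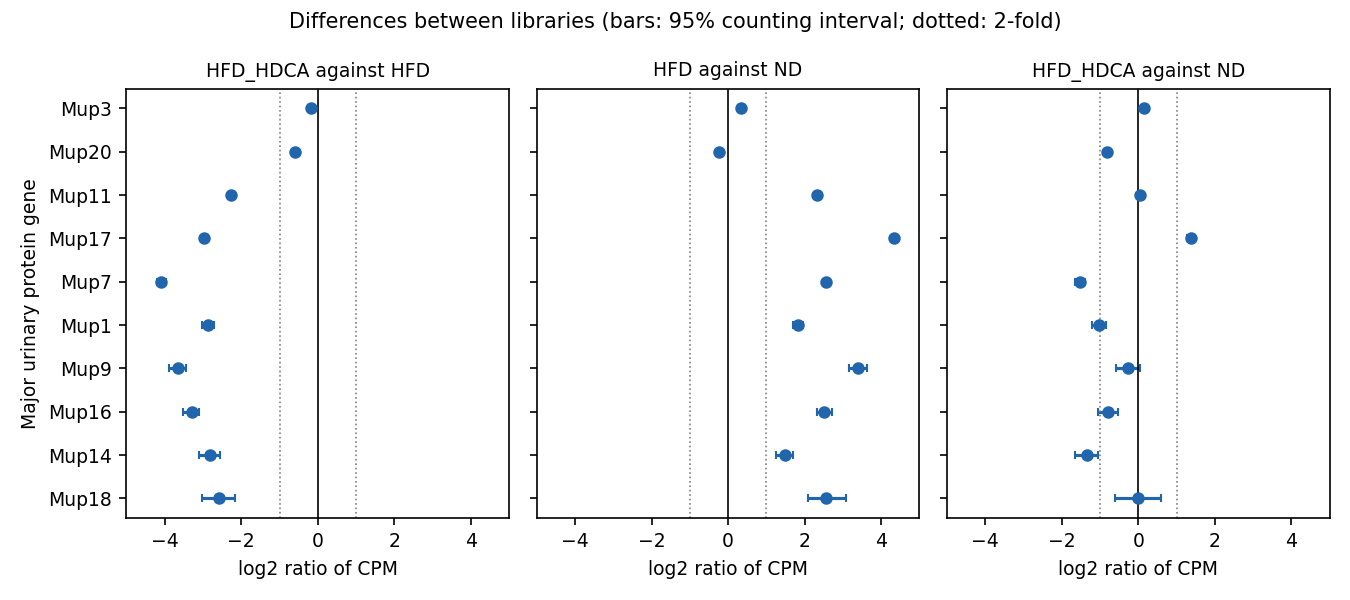
Log2 ratio of CPM of each Mup gene in 3 panels, HFD_HDCA against HFD, then HFD against ND, then HFD_HDCA against ND, with 95% counting intervals, where dotted lines mark a 2-fold difference. The 8 genes below Mup3 and Mup20 lie beyond the 2-fold lines to the left in the first panel and to the right in the second, and scatter from -1.52 to 1.36 in the third.

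The sum of all 10 members was dominated by Mup3 and Mup20 and moved much less. It was 34971 CPM in HFD_HDCA, 57144 CPM in HFD and 43685 CPM in ND, which is 3.50% of the nuclear-encoded UMIs in HFD_HDCA, 5.71% in HFD and 4.37% in ND. Its log2 ratio was -0.71 between HFD_HDCA and HFD, 0.39 between HFD and ND and -0.32 between HFD_HDCA and ND. Endothelial markers were highest in ND and lowest in HFD, but without the barcodes that carried markers of other cell types these ratios were -0.71, 0.37 and -0.34 in the same order, and those of the 8-gene sum -2.74, 2.78 and 0.04. Mitochondrial content also differed between libraries, and with no limit on it the ratios of the family sum were -0.69, 0.40 and -0.30.

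Mup genes are also found in barcodes that should not make them, which bears on every share of cells with a UMI. Endothelial cells are not known to make these proteins. In barcodes with at least 3 endothelial markers, the 8-gene sum was at 670 CPM in HFD_HDCA (35 barcodes), 7119 CPM in HFD (19 barcodes) and 782 CPM in ND (94 barcodes). In barcodes without other-cell markers it was at 2209 CPM in HFD_HDCA, 14772 CPM in HFD and 2153 CPM in ND. At an equal depth of 500 nuclear-encoded UMIs, 8 of 32 endothelial-marker barcodes in HFD_HDCA, 12 of 13 in HFD and 29 of 89 in ND had a UMI of the 8 genes, against 59.1% of HFD_HDCA, 94.0% of HFD and 63.0% of ND barcodes without other-cell markers. The exact binomial intervals of the endothelial shares were 11.5 to 43.4% in HFD_HDCA, 64.0 to 99.8% in HFD and 23.0 to 43.3% in ND. Median depths before thinning were 776 nuclear-encoded UMIs in HFD_HDCA, 673 in HFD and 896.5 in ND for the endothelial-marker barcodes, and 1028 in HFD_HDCA, 735.5 in HFD and 802 in ND for the others. In HFD the share with a UMI was thus at about that of endothelial-marker barcodes and is not read as the share of expressing cells. The levels, by contrast, were lower in the endothelial-marker barcodes of each library. The part of free RNA and of doublets in these values was not tested.

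Counts of the 8 genes per barcode were then compared at equal depth. After thinning to 500 nuclear-encoded UMIs, 2821 HFD_HDCA, 1973 HFD and 2437 ND barcodes remained, and 179 HFD_HDCA, 925 HFD and 339 ND barcodes were too shallow and left out. The median barcode had 1 UMI of the 8 genes in HFD_HDCA, 6 in HFD and 1 in ND. At least 10 UMIs were found in 0.461% of HFD_HDCA barcodes, 31.1% of HFD barcodes and 0.287% of ND barcodes. No UMI was found in 41.5% of HFD_HDCA, 6.03% of HFD and 38.2% of ND barcodes, and since free RNA can give these UMIs, the shares describe counts in barcodes and not expressing cells. Without thinning, a Mup7 UMI was seen in 16.3% of HFD_HDCA, 74.5% of HFD and 31.4% of ND barcodes. At equal depth Mup7 was seen in 7.30% of HFD_HDCA, 57.5% of HFD and 18.3% of ND barcodes, and Mup17 in 24.4% of HFD_HDCA, 58.6% of HFD and 11.9% of ND barcodes. Mup3 was seen in at least 98.3% and Mup20 in at least 92.3% of barcodes of each library.

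**Figure D3:**
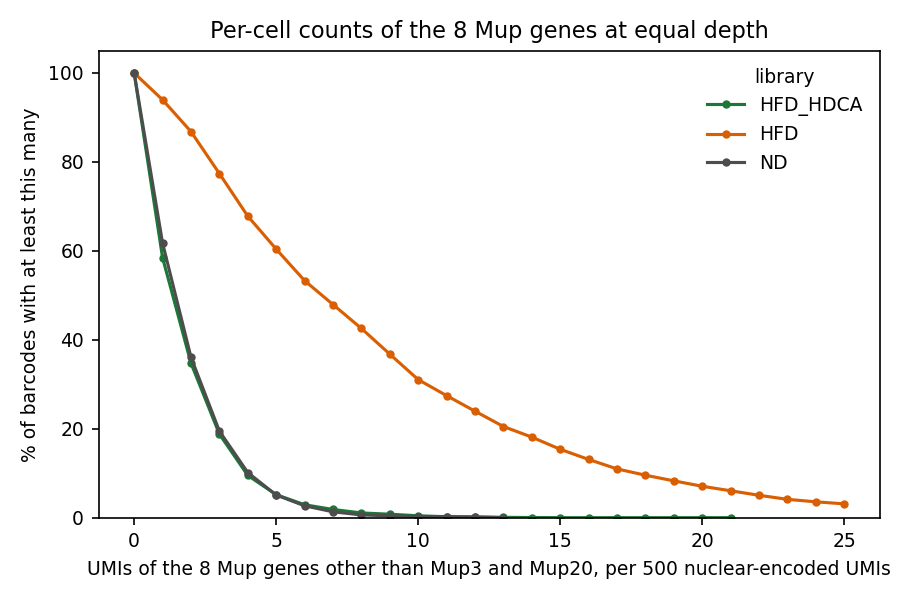
Percent of barcodes (vertical axis) with at least the given number of UMIs of the 8 Mup genes other than Mup3 and Mup20 (horizontal axis), after thinning each barcode to 500 nuclear-encoded UMIs. The HFD_HDCA and ND curves nearly coincide and reach 5.21% and 5.13% at 5 UMIs, where the HFD curve is at 60.4%.

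The members differed in how far the spread of their counts over barcodes exceeded counting noise. The variance of the thinned count divided by its mean, which is 1 for pure counting noise, was 6.78 in HFD_HDCA, 10.5 in HFD and 6.53 in ND for Mup20. For Mup3, at a like level, it was 2.25 in HFD_HDCA, 2.52 in HFD and 2.27 in ND. Mup17 had values of 1.93 in HFD_HDCA, 5.30 in HFD and 1.44 in ND, and Mup9 had 1.74 in HFD_HDCA, 3.59 in HFD and 1.25 in ND, although its mean was low. Mup1, Mup14, Mup16 and Mup18 were between 0.98 and 1.23 in every library, with mean thinned counts of at most 0.29. This measure also rises with the mean, so it does not rank genes or libraries of unlike level by unevenness. The mean thinned count of Mup17 was 0.37 in HFD_HDCA, 2.81 in HFD and 0.15 in ND. Across cells at equal depth the 8-gene sum was lower where Mup20 was higher. Their Pearson correlation was -0.25 over 2821 HFD_HDCA barcodes, -0.43 over 1973 HFD barcodes and -0.29 over 2437 ND barcodes. The correlation of the 8-gene sum with the hepatocyte marker Alb was -0.28 in HFD_HDCA, -0.47 in HFD and -0.30 in ND. The inverse relation was thus not particular to Mup20. Mup3 and Mup20 correlated at 0.36 in HFD_HDCA and 0.41 in ND, the highest of the 45 pairs there, and in HFD the highest pair was Mup11 with Mup17 at 0.44. These cells share a library and a fixed total of UMIs, and the values are descriptions.

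The levels were then followed from the portal to the central end of the lobule. Barcodes were ranked within each library by 9 pericentral against 12 periportal landmark genes, none of them a Mup gene, and divided into 5 bins of equal size, with bin 1 the most periportal and bin 5 the most pericentral. Genes kept out of the ranking followed it. Glul, the glutamine synthetase of cells at the central vein, had 756 CPM in bin 5 and 25.1 CPM in bin 1 of HFD_HDCA, 291 and 56.0 CPM in HFD, and 401 and 10.0 CPM in ND. Ass1, a periportal urea cycle enzyme, had 1339 CPM in bin 5 and 3482 CPM in bin 1 of HFD_HDCA, 1691 and 3155 CPM in HFD, and 1977 and 2733 CPM in ND. Bins differed in depth. The median depth of bin 1 was 4067 nuclear-encoded UMIs in HFD_HDCA, 2435 in HFD and 3026 in ND, and that of bin 5 was 1472 in HFD_HDCA, 1397 in HFD and 767 in ND.

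Mup20 was highest in the most periportal barcodes of all 3 libraries. From bin 1 to bin 5 it had 24460, 10277, 7474, 6763 and 5101 CPM in HFD_HDCA. In HFD it had 40282, 17946, 10614, 9700 and 6686 CPM over the same bins. In ND it had 34398, 27716, 16683, 13142 and 9773 CPM. It was lower at each step towards the central vein in every library, and bin 5 was 4.79-fold below bin 1 in HFD_HDCA, 6.02-fold in HFD and 3.52-fold in ND. In bin 1 the highest level was that of HFD, and in bins 2 to 5 that of ND. Mup3 had the same direction with a flatter slope, also when thinned and ranked again (1.40-fold in HFD_HDCA, 1.24-fold in HFD and 1.47-fold in ND). It had 15211 CPM in bin 5 and 23272 CPM in bin 1 of HFD_HDCA, 19453 and 23821 CPM in HFD, and 11556 and 20392 CPM in ND, with its HFD values not in step order (21860 CPM in bin 4 and 20643 CPM in bin 3).

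The other 8 genes ran the opposite way. Their sum over bins 1 to 5 was 239, 1581, 2574, 3175 and 4869 CPM in HFD_HDCA. It was 4888, 11636, 17908, 18458 and 25636 CPM in HFD. In ND it was 789, 1470, 2623, 3084 and 4988 CPM. The sum was higher at each step towards the central vein in all 3 libraries, with a log2 ratio of bin 5 over bin 1 of 4.35 in HFD_HDCA, 2.39 in HFD and 2.66 in ND. When barcodes were thinned to 500 UMIs and ranked again on the thinned counts, an alternative chosen after seeing the data, the direction was the same and the log2 ratios were 2.78 in HFD_HDCA, 2.25 in HFD and 1.56 in ND. In barcodes with at least 1000 nuclear-encoded UMIs they were 4.81 in HFD_HDCA, 2.77 in HFD and 3.04 in ND. The size of the gradient in HFD_HDCA and ND thus depended on how depth was treated, and these gradients start from a level that may be background. In bin 1 the sum lay below that of endothelial-marker barcodes in HFD_HDCA (239 against 670 CPM) and in HFD (4888 against 7119 CPM), and was at about that level in ND (789 against 782 CPM). Barcodes with at least 3 Kupffer cell markers had 826 CPM in HFD_HDCA, 2379 CPM in HFD and 698 CPM in ND. The bin 1 sum of HFD thus lay above that of its Kupffer-marker barcodes. In HFD, Alb was at 25106 CPM in endothelial-marker barcodes, 4190 CPM in Kupffer-marker barcodes and 45071 CPM in those without other-cell markers. The background level in HFD is not settled by these barcodes. No expression in bin 1 is read from these values in any library.

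Mup17 and Mup11 were the most abundant of the 8 copies in HFD by CPM. The log2 ratio of bin 5 over bin 1 was 4.91 in HFD_HDCA, 4.86 in HFD and 3.36 in ND for Mup17, and 5.11 in HFD_HDCA, 1.65 in HFD and 3.51 in ND for Mup11. Thinned and ranked again, it was 3.19 in HFD_HDCA, 4.57 in HFD and 2.31 in ND for Mup17, and 2.89 in HFD_HDCA, 1.44 in HFD and 1.77 in ND for Mup11. Over bins 1 to 5 Mup17 had 59.2, 419, 554, 697 and 1786 CPM in HFD_HDCA. In HFD it had 417, 2396, 5533, 6417 and 12141 CPM. In ND it had 78.4, 141, 250, 304 and 808 CPM. In HFD bin 5 Mup17 exceeded both Mup20 (6686 CPM) and Mup11 (8303 CPM), while in bin 1 it was at 417 CPM beside 40282 CPM of Mup20. Mup11 in HFD was close to its highest level from bin 3 on, with 2648, 6262, 8036, 7870 and 8303 CPM from bin 1 to bin 5. In HFD_HDCA it had 75.8, 902, 1619, 2031 and 2622 CPM, and in ND 279, 771, 1578, 1864 and 3176 CPM. Mup7 had a shallower gradient, with 186 CPM in bin 5 and 27.8 CPM in bin 1 of HFD_HDCA, 2583 and 1182 CPM in HFD, and 554 and 205 CPM in ND.

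The low copies were not alike. Mup9 in HFD had 50.5, 156, 235, 219 and 1080 CPM from bin 1 to bin 5, with bin 5 well above bin 4. Its bin 5 level was 62.3 CPM in HFD_HDCA and 51.9 CPM in ND. Mup16 had 577 CPM in bin 5 and 145 CPM in bin 1 of HFD, and Mup18 had 104 and 24.1 CPM. Mup1 peaked in the middle in HFD, at 798 CPM in bin 3 beside 305 CPM in bin 1 and 643 CPM in bin 5. Mup14 had no gradient that this depth could show in ND, with 57.7 CPM in bin 5 and 63.1 CPM in bin 1 (log2 ratio -0.12, interval -0.69 to 0.41). By the 2-fold rule, bin 5 was higher than bin 1 for 8 of 10 members in HFD_HDCA, 7 in HFD and 6 in ND, beside 4.79% of the 7855 measured genes in HFD_HDCA, 5.81% in HFD and 7.75% in ND. It was lower for 1 member, Mup20, in each library, beside 3.56% of genes in HFD_HDCA, 4.98% in HFD and 2.67% in ND. On thinned counts ranked again, Mup1 in HFD_HDCA (log2 ratio 0.75) and Mup7 (0.82) and Mup9 (0.49) in ND were no longer past 2-fold. Mup18 in ND was then past 2-fold (1.10), but its counting interval of -0.91 to 3.81 spanned 0.

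**Figure D4:**
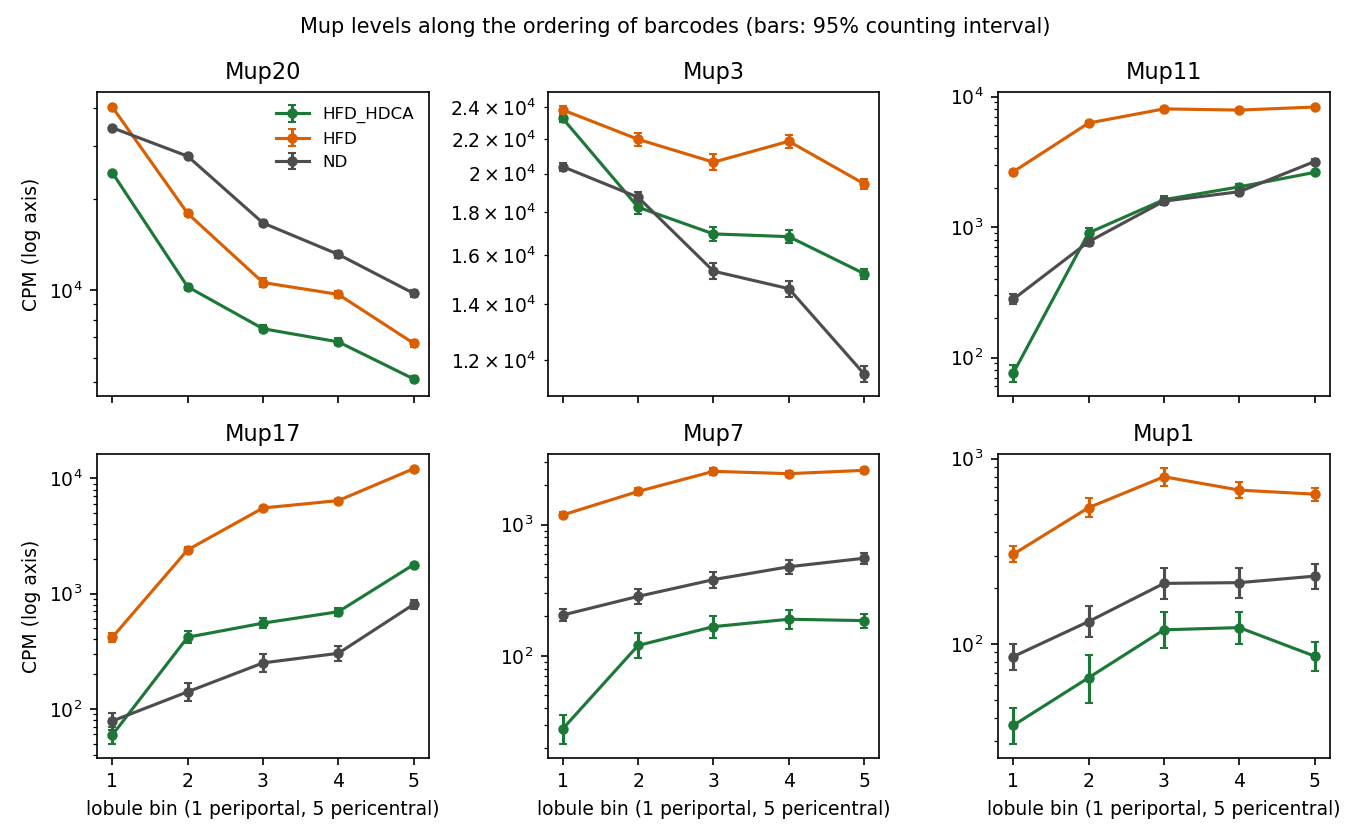
CPM (log axes with separate ranges) of 6 Mup genes in 5 bins of barcodes ordered from periportal (1) to pericentral (5), in the HFD_HDCA, HFD and ND libraries, with 95% counting intervals. Mup20 falls at every step in all 3 libraries, while Mup11 and Mup17 are higher in bin 5 than in bin 1 throughout and the HFD line lies highest for Mup11, Mup17, Mup7 and Mup1.

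Bins of the same number can be set beside each other only loosely, because barcodes were ranked within each library and the landmarks differed between libraries. The 9 pericentral landmarks together had 7502 CPM in HFD_HDCA, 6979 CPM in HFD and 2399 CPM in ND over whole libraries, and in bin 5 they had 17813 CPM in HFD_HDCA, 16636 CPM in HFD and 9781 CPM in ND. The 12 periportal landmarks together had 3687 CPM in HFD_HDCA, 4438 CPM in HFD and 6265 CPM in ND. The part of this shift in the diet differences of the 8 copies was not tested. With that limit, the sum of the 8 in bins 2 to 5 had log2 ratios of -2.88 to -2.40 for HFD_HDCA over HFD, 2.36 to 2.98 for HFD over ND and -0.03 to 0.10 for HFD_HDCA over ND. In bin 1 the sum may be background in each library, which was not tested, although in HFD it lay above that of Kupffer-marker barcodes. The bin 1 log2 ratios were -4.35 for HFD_HDCA over HFD, 2.63 for HFD over ND and -1.72 for HFD_HDCA over ND. None of them is read. The family sum had the direction of Mup20, with 25182 CPM in bin 5 and 47971 CPM in bin 1 of HFD_HDCA, 51775 and 68992 CPM in HFD, and 26317 and 55579 CPM in ND.

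Of 18 listed genes of the growth hormone pathway, which drives the family, 13 were measured. By the 2-fold rule, 0 were higher and 2 lower in HFD_HDCA than in HFD, 1 was higher and 1 lower in HFD than in ND, and 0 were higher and 2 lower in HFD_HDCA than in ND. Over all 7855 genes the rule called between 1.48% and 3.53% in any 1 direction. The median log2 ratios of the list in these 3 pairs were -0.12, -0.02 and -0.07. Onecut1, a liver factor that growth hormone induces, had 11.7 CPM in HFD_HDCA, 64.0 CPM in HFD and 10.1 CPM in ND. Onecut1 was the one gene of the list at least 2-fold higher in HFD than in both other libraries, as the 8 copies were, which was noticed after the values were seen. Bcl6, a repressor that opposes STAT5, had 16.4 CPM in HFD_HDCA, 21.2 CPM in HFD and 115 CPM in ND. Socs2, a feedback inhibitor of growth hormone signalling, had 3.45 CPM in HFD_HDCA, 12.6 CPM in HFD and 12.9 CPM in ND. The receptor Ghr had 693 CPM in HFD_HDCA, 756 CPM in HFD and 504 CPM in ND, and the target Igf1 had 943 CPM in HFD_HDCA, 1259 CPM in HFD and 918 CPM in ND. Stat5b had 20.02 CPM in HFD_HDCA, 26.8 CPM in HFD and 26.0 CPM in ND.

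Other genes named as regulators of the family were mostly within 2-fold between libraries. Of 10 listed, 9 were measured, and 0 were at least 2-fold lower in any pair of libraries. Dbp, an output gene of the circadian clock, had 102 CPM in HFD_HDCA, 71.5 CPM in HFD and 12.4 CPM in ND, and the hour of cell isolation was not stated in those sources. Zhx2, a transcription factor that mouse liver needs for normal Mup levels, had 10.2 CPM in HFD_HDCA, 10.2 CPM in HFD and 12.2 CPM in ND.

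Genes that male livers express more than female livers were looked at next, and of 23 listed, 21 were measured. By the 2-fold rule, 9 were lower and 0 higher in HFD_HDCA than in HFD, 4 were lower and 1 higher in HFD than in ND, and 12 were lower and 0 higher in HFD_HDCA than in ND, with median log2 ratios of -0.86, -0.11 and -1.09. Over all 7855 genes the same rule called 1.48% lower and 1.63% higher in HFD_HDCA than in HFD, 3.53% lower and 2.85% higher in HFD than in ND, and 2.97% lower and 2.62% higher in HFD_HDCA than in ND. Selenbp2, a selenium-binding protein, had 3.28 CPM in HFD_HDCA, 505 CPM in HFD and 248 CPM in ND. Cyp4a12b, a fatty acid hydroxylase, had 1.55 CPM in HFD_HDCA, 46.9 CPM in HFD and 124 CPM in ND, and Elovl3, a fatty acid elongase, had 45.7 CPM in HFD_HDCA, 70.4 CPM in HFD and 163 CPM in ND. Of 20 genes that female livers express more, 5 passed the count minimum, most of them through the HFD_HDCA library alone, so their share is no result. Cyp2b9 had 205 CPM in HFD_HDCA, 5.09 CPM in HFD and 0.23 CPM in ND, and Cd36, a fatty acid transporter, had 143 CPM in HFD_HDCA, 38.8 CPM in HFD and 37.2 CPM in ND. Whether the male-biased genes and the 8 Mup copies differed in their pattern was not tested.

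Other genes were ranked by likeness of their pattern over 15 points, the 5 bins in each of 3 libraries, among 3233 genes with at least 500 counts. The points share libraries and bin depths, and the correlation is a description. Closest to the family sum were C9, a component of complement (Pearson r of 0.94 on log2 CPM), Serpina12, Egfr, Igf1, Spin1, Foxq1, Kmo, Enpp2, Irf2 and Cps1 (0.88). C9 had 470 CPM in HFD_HDCA, 892 CPM in HFD and 718 CPM in ND. Among the closest to the sum of the 8 copies, in a ranking added after their values were seen, were the sulfotransferase Sult2a8 (0.95), Cyp7a1 (0.92), which sets the rate of bile acid synthesis, Decr2, Akr1d1, Eif4a2, C4bp, Slco1a1, Spp2 and Bphl (0.85). Cyp7a1 had 14.3 CPM in HFD_HDCA, 210 CPM in HFD and 37.4 CPM in ND. Sult2a8 had 991 CPM in HFD_HDCA, 1686 CPM in HFD and 1000 CPM in ND.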

How the data were processed

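The deposited matrices held UMI counts per gene and barcode, which per the file headers came from Cell Ranger 5.0.0, on mm10 per the submitters' processing notes. The sources used here state neither how barcodes were selected nor how multi-mapped reads were counted. Doublets were not called, and no cells were clustered. The 10 members, the gene lists and the comparisons were chosen with earlier results of these data known. All members and the genes closest in pattern are named, with up to 4 genes of each list having the largest ratios. A few genes that this rule names are not reported here.

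Barcodes with 200 genes or more and 50% mitochondrial UMIs or less were summed per library and scaled to 1000000 nuclear-encoded UMIs (CPM). Each count had 0.5 added before log2 ratios were formed, with exact conditional binomial 95% intervals, CPM intervals were exact Poisson and shares exact binomial (Clopper-Pearson). For each barcode the lobule score was the mean scaled log expression of 9 pericentral minus that of 12 periportal landmarks, computed on counts without Mup genes. The ratio and thinning code was tested on simulated data. Python 3.11.15, numpy 2.4.6, scipy 1.17.1, pandas 2.3.3 and matplotlib 3.10.9 were used. Gene positions and transcripts were from GENCODE M21.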

Additional observations from a re-analysis of the deposited data

Results flagged for a closer look

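Barcodes above 50% mitochondrial counts were left out of every comparison, yet they carried the same difference. The sum of the 8 Mup genes other than Mup3 and Mup20 was 2450 CPM in 1863 such HFD_HDCA barcodes, 19031 CPM in 3354 HFD barcodes and 2795 CPM in 2977 ND barcodes. The HFD value is given here because it is a signal in unused barcodes that lay above that of the ND library. These barcodes were shallow, with median depths of 194 nuclear-encoded UMIs in HFD_HDCA, 128 in HFD and 166 in ND, and the part of free RNA in them was not tested.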

How the results depend on the processing

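Of the values that answer a comparison, 100 of 153 alternatives stayed within the counting interval, 51 moved outside it and 2 changed sign. For single members the numbers were 327, 123 and 0 of 450. In the next sentences the 3 diet ratios are HFD_HDCA against HFD, HFD against ND, and HFD_HDCA against ND. For the family sum they were -0.81, 0.51 and -0.30 with each barcode weighted equally, and -0.85, 0.55 and -0.29 with barcodes thinned to 500 UMIs. Without Mup genes in the CPM total they were -0.74, 0.41 and -0.33, and with no mitochondrial limit -0.69, 0.40 and -0.30. At most 30% mitochondrial counts gave -0.72 and -0.33 for the pairs with HFD_HDCA. Median-of-ratios size factors gave -0.77 and 0.45 for the pairs with HFD. For the pairs with ND, at least 500 genes gave 0.36 and -0.34, and leaving out other-cell barcodes 0.37 and -0.34. All 22 Mup symbols gave 0.40 for HFD against ND. For the 8-gene sum, whose alternatives were all chosen after seeing the data, equal weights gave -2.65, 2.59 and -0.060, thinning -2.54, 2.51 and -0.039, and at least 500 genes -2.71, 2.90 and 0.20. Its HFD_HDCA against ND ratio thus changed sign under the first 2, and the cause was not tested. Size factors gave -2.80 and 2.86 and a CPM total without Mup genes -2.78 for the pairs with HFD. Counts of members past 2-fold stayed within 1.5 times, but not always with the same members, since for HFD_HDCA against ND Mup1 was no longer past 2-fold with equal weights or thinning.

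For bin 5 against bin 1, ratios follow in the order HFD_HDCA, HFD, ND, beside -0.93, -0.41 and -1.08 as reported for the family sum. It gave -0.82, -0.35 and -0.97 with 3 bins, -0.96, -0.44 and -1.12 without Mup genes in the total, and -0.74, -0.37 and -0.74 thinned and ranked again. Barcodes with at least 1000 UMIs gave -1.01 in HFD_HDCA and -1.18 in ND. The 8-gene sum gave 3.32, 1.95 and 2.22 with 3 bins, 4.81, 2.77 and 3.04 at 1000 UMIs or more, and 2.78, 2.25 and 1.56 thinned and ranked again. No paired analysis was possible because each diet had 1 library. Depth limits the low copies most, since Mup18 had 58 counts in HFD_HDCA, 224 in HFD and 43 in ND.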

Other observations

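Of the 12 Mup symbols outside the 10 genes, Mup12 and Mup21 were the most abundant. Mup12, which lies among the near-identical copies, had 98.5 CPM in HFD_HDCA, 481 CPM in HFD and 205 CPM in ND. It was thus highest in HFD, as the 8 copies were. Mup21, whose 3′ windows were all unique (100%), had 382 CPM in HFD_HDCA, 482 CPM in HFD and 179 CPM in ND. It was 2.13-fold higher in HFD_HDCA than in ND and 1.26-fold lower in HFD_HDCA than in HFD, so this copy stood apart from ND in both libraries from the high fat diet. The remaining symbols were at 60.5 CPM or less in every library.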
